A study of Mus musculus with 6 samples.

Results

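The WNT genes examined here were the ligands, the proteins that secrete, receive, block or boost them, and the nuclear factors and feedback genes that act downstream. They were taken by symbol from the deposited table of all loci: every Wnt, Fzd, Sfrp, Dkk1 to Dkk4 and Rspo1 to Rspo4 gene, together with 19 named genes such as *Lrp5*, *Lrp6*, *Axin2*, *Lef1*, *Wls* and *Rnf43*. Of 24402 loci, 60 matched, and each of the 60 carried a single gene symbol. RNA was from whole lungs of C57BL/6 mouse embryos at 12.5 *dpc*, with 3 libraries from wild-type embryos (control) and 3 from Yap-flox/flox; Shh-Cre/+ littermates (*Yap* mutant). The table gives 1 expression value per genotype in FPKM, fragments scaled to transcript length and library size, a single figure for the 3 libraries together. The spread between libraries and their depth are therefore unknown, no test could be run, and every difference below lacks a replicate check.

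Cre produced from the *Shh* locus deletes the floxed part of *Yap* in the epithelium, while the mesenchyme keeps its *Yap*. *Yap1* itself was listed at 76.1 FPKM in control and 65.6 FPKM in the mutants, and this value of the whole locus does not check the deletion. The mutants also carry the Cre insertion in one copy of *Shh*, so loss of *Yap* and presence of that allele cannot be told apart. The lung epithelial factor *Nkx2-1* was at 61.9 and 35.9 FPKM and the lung mesenchymal factor *Tbx4* at 54.3 and 59.2 FPKM. Other lung mesenchymal factors differed in direction, with *Foxf1* at 83.5 and 41.6 FPKM, *Tcf21* at its higher locus at 57.4 and 39.2 FPKM, and *Tbx5* at 43.9 and 54.2 FPKM. All of these were present in each group. Summed over 7 cardiac muscle genes, the level was 98.3 FPKM in control and 668 FPKM in the mutants, and over 5 liver genes it was 8.49 and 40.6 FPKM. Of the liver genes, *Afp* was at 5.42 and 22.3 FPKM and *Ttr* at 0.492 and 13.5 FPKM, while *Alb* was at 1.28 and 1.14 FPKM. Summed over 4 Y-linked genes, the level was 0.0306 FPKM in control and 36.4 FPKM in the mutants. Y-linked RNA was thus nearly absent from the control value alone, so the sex of the embryos and the genotype cannot be told apart in any result below. The part of the cardiac muscle and liver gene differences in any result below was not tested.

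WNT proteins are lipid-modified by PORCN, carried to the cell surface by WLS and bound by Frizzled receptors. With the co-receptors LRP5 or LRP6 they stabilise β-catenin, which activates genes with TCF and LEF factors, while other WNTs, among them WNT5A, signal through receptors such as ROR1 and ROR2 without β-catenin. Secreted SFRP and WIF1 proteins bind WNTs, DKK1 and DKK2 bind LRP5 and LRP6, and R-spondins protect Frizzleds from the ubiquitin ligases RNF43 and ZNRF3. In the early mouse lung, *Wnt2* and *Wnt2b* are made by the mesenchyme and are needed for the lung to form, *Wnt7b* is made by the epithelium and acts on the mesenchyme, and *Wnt5a* is concentrated near the distal tips.

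Among the 43 of the 60 genes averaging 1 FPKM or more, 9 were past 1.5-fold. The ligands *Wnt2*, *Wnt5a* and *Wnt11*, the receptor gene *Fzd5* and the ubiquitin ligase gene *Rnf43* were lower in *Yap* mutant lungs. The antagonist genes *Dkk1*, *Dkk2* and *Wif1* and the nuclear factor gene *Lef1* were higher. A gene was counted as past 1.5-fold when its 2 values averaged 1 FPKM or more and the log2 ratio of *Yap* mutant over control, taken after adding 0.1 FPKM to both values, was at least 0.585 in size. The added 0.1 FPKM makes the ratio of low genes smaller than that of their FPKM. Of the 60 genes, 43 averaged 1 FPKM or more and 17 did not. Among the 43, 9 (20.9%) were past 1.5-fold, against 7.75% of all 12716 loci with that mean. Of these, 4 (9.30%) were higher, against 4.44% of all loci, and 5 (11.6%) were lower, against 3.30%. At 2-fold, 3 of the 43 (6.98%) were past the threshold, against 3.44% of all loci. Among those averaging 5 FPKM or more, 5 of 32 genes (15.6%) were past 1.5-fold, against 4.18% of all loci.

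The median log2 ratio of the 43 genes was 0.01, beside -0.01 for all 12716 loci, with 22 ratios above and 21 below 0. The genes that passed by least on either side were *Fzd5*, at a log2 ratio of -0.74, and *Wif1*, at 0.86, and those that missed by least were *Rspo1*, at -0.50, and *Sfrp1*, at 0.49. Measured against the epithelial marker list, whose median was -0.60, 22 of the 43 genes were higher and 1 was lower by 1.5-fold. Counted that way, 52.9% of all loci were past 1.5-fold. RNA came from whole lungs, so fewer cells of a type and less RNA per cell cannot be told apart in any of these values.

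**Figure D1:**
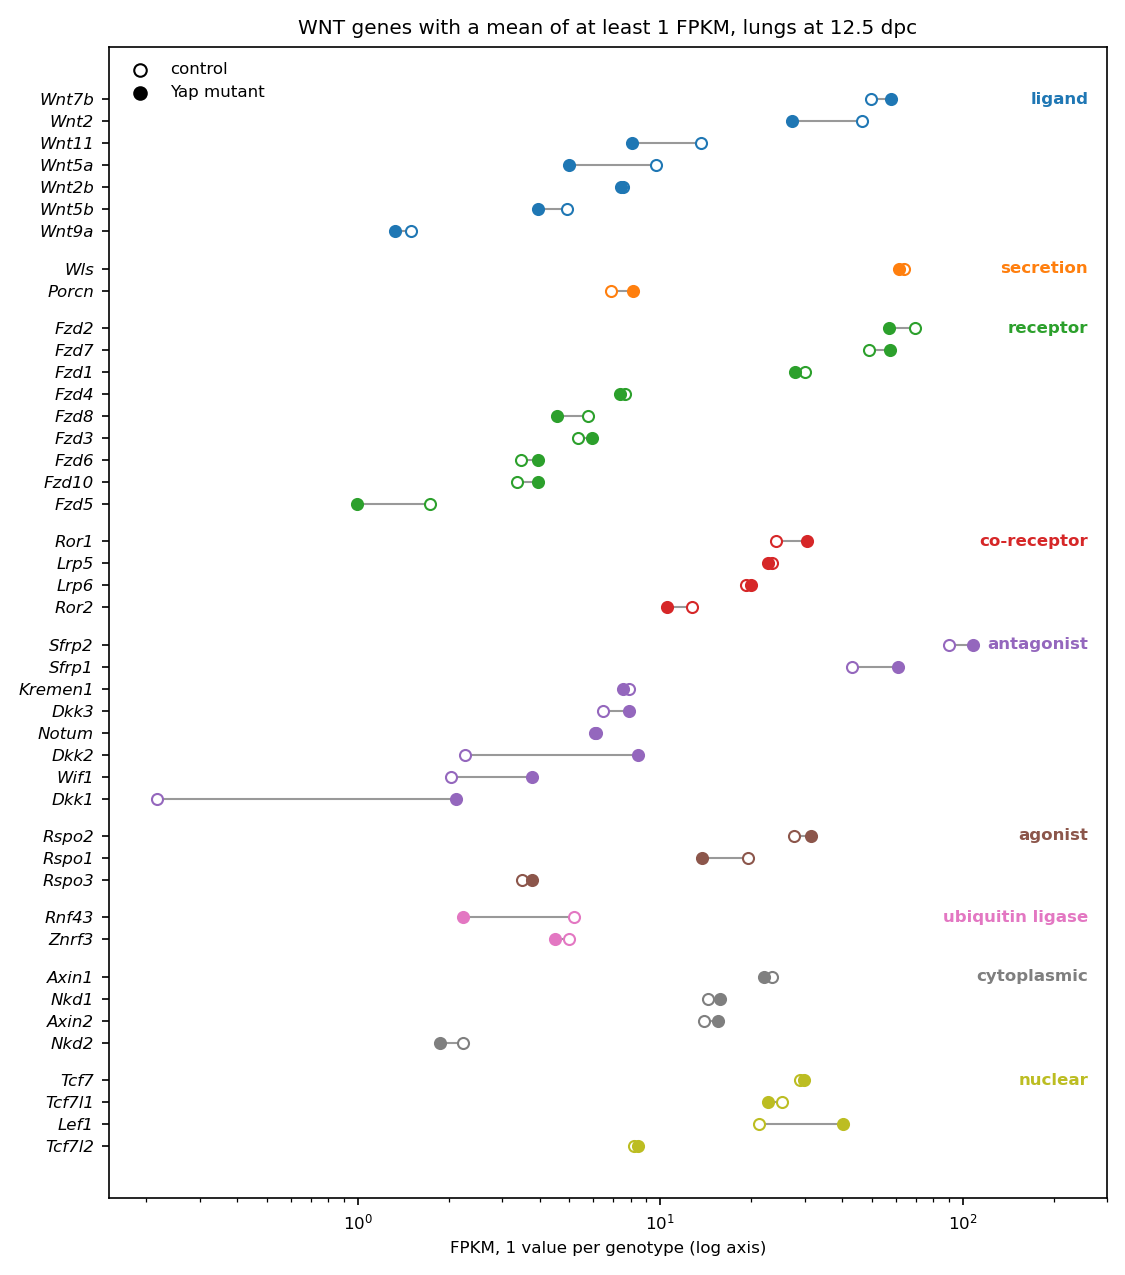
FPKM of the 43 WNT genes averaging 1 FPKM or more, 1 value per genotype on a log axis, in control (open circles) and *Yap* mutant lungs (filled circles), ordered by role and control level. Wide gaps on this axis are those of *Dkk1* (0.216 and 2.12 FPKM), *Dkk2* (2.27 and 8.43 FPKM) and *Rnf43* (5.18 and 2.22 FPKM).

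Among the ligands, 2 genes made up most of the signal in control lungs, and *Wnt7b* passed *Wnt2* by a wider margin in the mutants. *Wnt7b* was at 49.6 FPKM in control and 58.0 FPKM in the mutants, a log2 ratio of 0.23. *Wnt2* was at 46.5 FPKM in control and 27.3 FPKM in the mutants, a log2 ratio of -0.77 and a level 41.3% lower. The *Wnt2* locus is chr6:17988128-18030662 in mm10, as the locus column gives it with 1 added to the start, and later positions follow the same form. The FPKM of *Wnt7b* was thus 1.07 times that of *Wnt2* in control and 2.12 times in *Yap* mutant lungs.

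The next ligands in the control lungs were *Wnt11* and *Wnt5a*. *Wnt11* (chr7:98835109-98854796) was at 13.6 and 8.04 FPKM, a log2 ratio of -0.75. *Wnt5a* (chr14:28504587-28527387) was at 9.68 and 4.98 FPKM, a log2 ratio of -0.95, the lowest of the 7 ligands averaging 1 FPKM or more. *Wnt2b* was at 7.55 and 7.44 FPKM, a log2 ratio of -0.02, and *Wnt5b* was at 4.90 and 3.94 FPKM, a log2 ratio of -0.31. The *Wnt5b* locus overlaps *Fbxl14*, at 19.4 and 18.7 FPKM, and it is not known whether reads were counted by strand, so the *Wnt5b* values are uncertain. *Wnt9a*, the lowest of the 7 in control lungs, had a log2 ratio of -0.16. In all, 3 of the 7 ligands were past 1.5-fold, each lower, beside 3.30% of all loci, and the median log2 ratio of the 7 was -0.31.

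Summed over the 19 ligand genes, the level was 135.1 FPKM in control and 112.2 FPKM in the mutants, a ratio of 0.831. The sum of *Wnt2*, *Wnt5a* and *Wnt11* was 69.8 and 40.3 FPKM, while that of the other 16 was 65.3 and 71.9 FPKM. *Wnt7b* made up 36.7% of the ligand sum in control and 51.7% in *Yap* mutant lungs, and *Wnt2* 34.4% and 24.3%. The part of *Wnt5a* was 7.16% and 4.44%.

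The 12 remaining ligands had a mean under 1 FPKM. *Wnt4* was at 1.02 and 0.473 FPKM and *Wnt6* at 0.493 and 0.424 FPKM. The other 10 had a mean under 0.1 FPKM, among them *Wnt7a*, *Wnt3*, *Wnt10a* and *Wnt16*. *Wnt1* and *Wnt8a* were listed at 0 in both genotypes, *Wnt8b* was listed at 0 in control lungs, and *Wnt3a* and *Wnt10b* were listed at 0 in *Yap* mutant lungs.

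The promoters of *Wnt2* and *Wnt11* are shown because both ligands were lower together. *Wnt5a* was lower too, but it is among 21 of the 60 genes with no promoter in the source used. A promoter here is the stretch from 250 bases before to 50 bases after a gene's start in RefSeq on GRCm38.p6, the build named mm10 in the submitters' processing notes, written 5′ to 3′ on the strand of the gene. For *Wnt11*, the first of 2 listed starts is shown. Capitals mark ATCAAAG, the reverse complement of CTTTGAT, a core that TCF and LEF factors bind.
*Wnt2* promoter, chr6:18030396-18030695, minus strand: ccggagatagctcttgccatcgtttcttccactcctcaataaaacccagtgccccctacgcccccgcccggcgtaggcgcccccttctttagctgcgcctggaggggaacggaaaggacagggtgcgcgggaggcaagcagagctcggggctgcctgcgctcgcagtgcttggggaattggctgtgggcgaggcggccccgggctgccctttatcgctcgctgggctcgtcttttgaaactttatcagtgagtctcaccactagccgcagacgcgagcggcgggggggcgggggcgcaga
*Wnt11* promoter, chr7:98834862-98835161, plus strand: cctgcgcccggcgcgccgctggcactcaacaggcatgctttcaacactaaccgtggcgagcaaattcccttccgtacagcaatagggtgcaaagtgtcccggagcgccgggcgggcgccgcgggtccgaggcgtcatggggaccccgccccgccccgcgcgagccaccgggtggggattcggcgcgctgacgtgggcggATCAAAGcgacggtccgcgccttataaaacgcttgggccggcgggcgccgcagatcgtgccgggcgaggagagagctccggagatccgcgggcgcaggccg

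The match in *Wnt11* lies 51 to 45 bases before the start, while the second listed start of *Wnt11* and the promoter of *Wnt2* hold none. CTTTGAT was searched on both strands and was present in 3.73% of all 32851 promoters and in 2 of 48 promoters of the 39 WNT genes found in the table, those of *Wnt11* and *Wnt5b*. GGAATG, the box bound by the TEAD factors that recruit YAP, was also searched on both strands. It was present in 14.7% of all promoters and in 1 of the 48, a promoter of *Wnt5b*, and no promoter of these genes held both motifs. Among 13 promoters of the 8 genes past 1.5-fold in the table, GGAATG was found in 0 and CTTTGAT in 1. The median GC content was 66.5% in the 48 promoters and 52.7% in all promoters. The part of base composition in these shares was not tested, so they do not show a lack of either motif. The stretch searched here also differs from that of the paper's own search for GGAATG. A match of letters is a description of the sequence and not a binding site.

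The secretion genes were near their control levels. *Wls*, whose product carries WNTs to the surface, was at 64.2 and 61.5 FPKM, a log2 ratio of -0.06. *Porcn*, which encodes the enzyme that adds the lipid, was at 6.88 and 8.11 FPKM, a log2 ratio of 0.23. *Porcn* lies on the X chromosome, and *Xist*, the X-inactivation RNA, was at 97.0 FPKM in control and 50.4 FPKM in the mutants.

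Of the 10 Frizzled genes, 9 averaged 1 FPKM or more. Of these, 1 (11.1%), *Fzd5*, was past 1.5-fold, beside 7.75% of all loci. *Fzd2* was at 69.5 FPKM in control and 56.9 FPKM in the mutants, a log2 ratio of -0.29, and *Fzd7* was at 48.9 and 57.4 FPKM, a log2 ratio of 0.23. *Fzd7* was thus below *Fzd2* in control and about level with it in *Yap* mutant lungs, with ratios of *Fzd7* to *Fzd2* of 0.704 and 1.01. *Fzd1* was at 30.0 and 27.8 FPKM. These 3 genes made up 84.0% of the Frizzled sum in control and 83.8% in *Yap* mutant lungs.

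*Fzd5* (chr1:64730558-64737750) was at 1.73 and 0.995 FPKM, and with 1 FPKM added in place of 0.1 FPKM its log2 ratio was -0.45, short of the threshold. *Fzd8* was at 5.77 and 4.56 FPKM, a log2 ratio of -0.33. *Fzd3*, *Fzd6* and *Fzd10* had log2 ratios between 0.15 and 0.22, and *Fzd4* had one of -0.05. *Fzd9*, at 1.08 and 0.817 FPKM, had a mean of 0.948 FPKM and was not counted. The sum over the 10 receptors was 176.8 FPKM in control and 169.6 FPKM in the mutants.

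None (0) of the 4 co-receptor genes was past 1.5-fold, beside 7.75% of all loci. *Lrp5* was at 23.5 and 22.8 FPKM and *Lrp6* at 19.2 and 20.0 FPKM, with log2 ratios of -0.05 and 0.06. The WNT5A receptors pointed in opposite directions, with *Ror1* at 24.1 and 30.6 FPKM (log2 ratio 0.35) and *Ror2* at 12.8 and 10.5 FPKM (log2 ratio -0.27). The ratio of *Ror1* to *Ror2* was 1.89 in control and 2.91 in *Yap* mutant lungs.

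**Figure D2:**
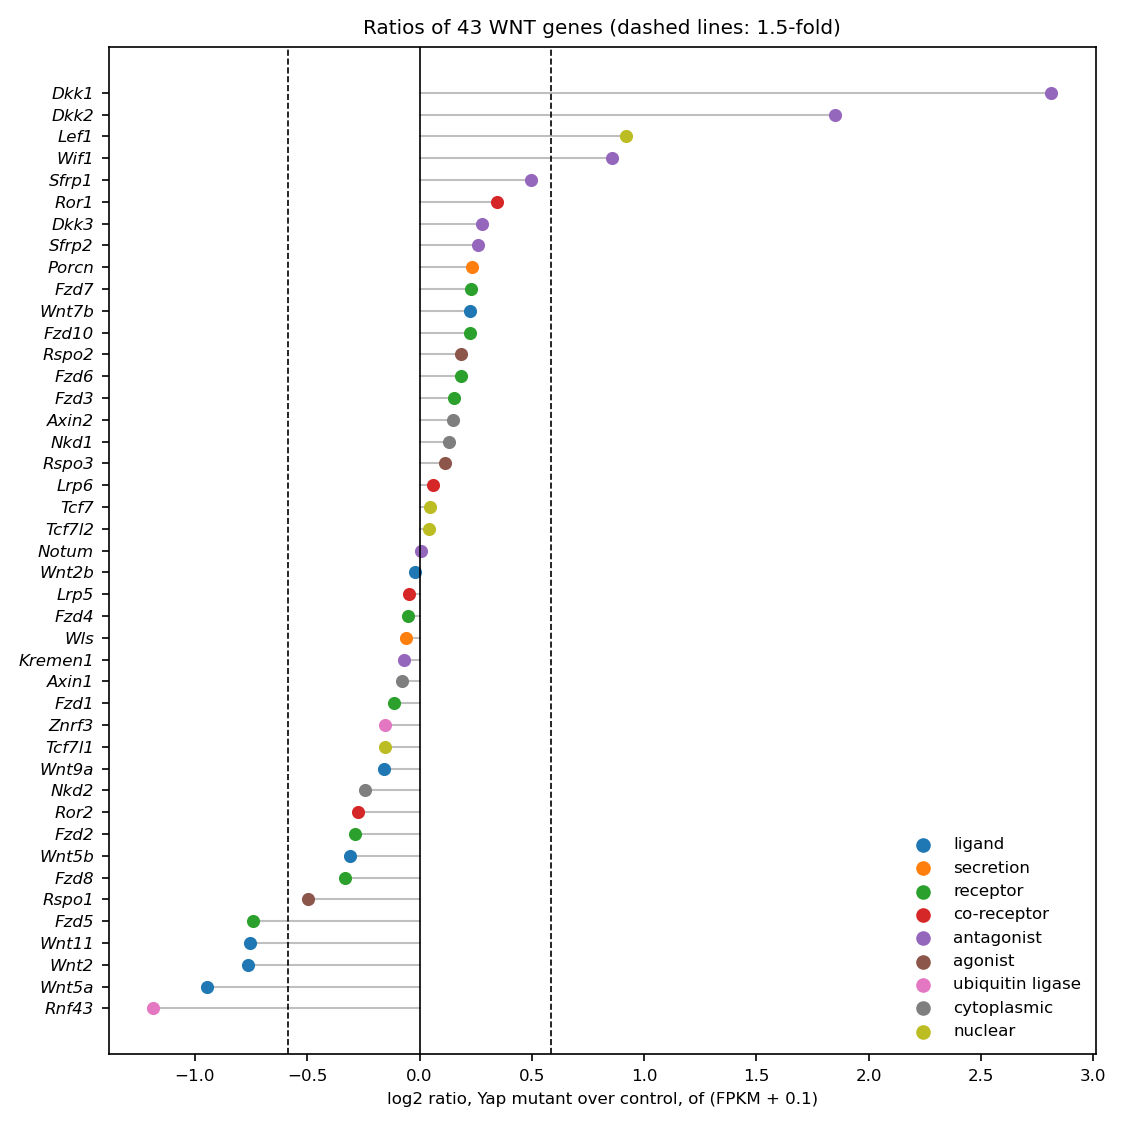
Log2 ratio of *Yap* mutant over control, after adding 0.1 FPKM, for each of the 43 genes, coloured by role. The dashed lines mark 1.5-fold, and 4 genes from *Wif1* (0.86) to *Dkk1* (2.81) lie to the right of them and 5 from *Fzd5* (-0.74) to *Rnf43* (-1.18) to the left.

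The antagonists had the highest median log2 ratio of the 9 roles, 0.39 over 8 genes averaging 1 FPKM or more, of which 7 had a ratio above 1 and 3 were past 1.5-fold, each higher, beside 4.44% of all loci. *Dkk2* (chr3:132084953-132180304), which encodes a DKK protein that binds LRP6, was at 2.27 FPKM in control and 8.43 FPKM in the mutants, 3.72 times the control level, a log2 ratio of 1.85. *Dkk1* (chr19:30545885-30549496), which encodes the best-known inhibitor of LRP6, was at 0.216 and 2.12 FPKM, 9.81 times the control level and a log2 ratio of 2.81 after the added 0.1 FPKM. With 1 FPKM added instead, the log2 ratio was 1.36 for *Dkk1* and 1.53 for *Dkk2*, so the order of these genes turned. Its control value was well under 1 FPKM, and *Dkk1* was counted because of its level in the mutants. *Wif1* (chr10:121034004-121100642), whose product binds WNTs directly, was at 2.04 and 3.77 FPKM, a log2 ratio of 0.86.

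Most of the antagonist signal was that of the SFRP genes, which were not past the threshold. *Sfrp2* was at 90.4 and 108 FPKM, a log2 ratio of 0.26, and *Sfrp1* was at 43.2 and 60.9 FPKM, a log2 ratio of 0.49. *Sfrp5* was at 0.331 and 1.14 FPKM, 3.46 times the control level with a mean under 1 FPKM, and *Sfrp4* was at 0.0747 and 0.0419 FPKM. *Dkk3*, a divergent DKK, was at 6.49 and 7.89 FPKM, and *Dkk4* was listed at 0 in both. *Kremen1*, which encodes a surface partner of DKK proteins, was at 7.87 and 7.51 FPKM. *Notum*, which encodes an enzyme that strips the lipid from WNTs, was at 6.08 and 6.12 FPKM, a log2 ratio of 0.01.

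The sum over the 11 antagonists was 159 FPKM in control and 206.1 FPKM in the mutants, a ratio of 1.30 beside the ratio of 0.831 for the ligands. The SFRP genes gave 134 and 170 FPKM of it and the DKK genes 8.97 and 18.4 FPKM. *Dkk2* was at 0.349 times the FPKM of *Dkk3* in control and 1.07 times in *Yap* mutant lungs.

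**Figure D3:**
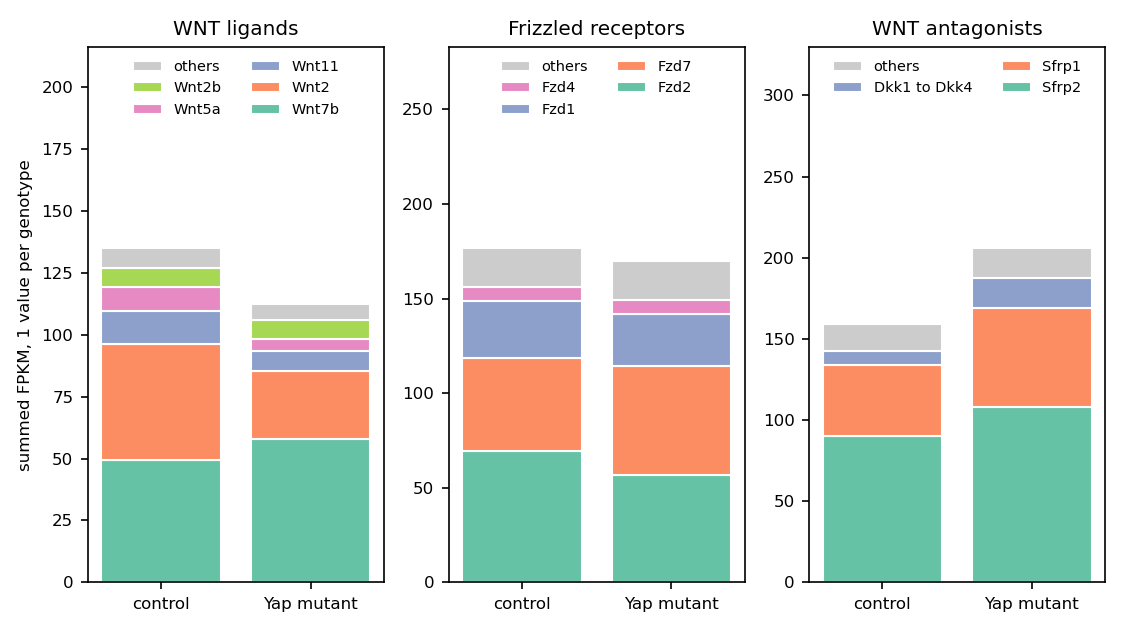
Summed FPKM of the 19 ligand, 10 Frizzled and 11 antagonist genes in control and *Yap* mutant lungs, stacked by gene on linear axes that start at 0. The *Wnt2* segment is 46.5 FPKM in control and 27.3 FPKM in the mutants, and the segment of *Dkk1* to *Dkk4* is 8.97 and 18.4 FPKM.

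The R-spondins did not point one way. *Rspo2*, which is made by the lung mesenchyme, was at 27.6 and 31.4 FPKM, a log2 ratio of 0.19. *Rspo1* was at 19.5 and 13.8 FPKM, a log2 ratio of -0.50, just short of the threshold. *Rspo3* was at 3.49 and 3.78 FPKM and *Rspo4* at 0.202 and 0.290 FPKM. The ratio of *Rspo2* to *Rspo1* was 1.42 in control and 2.29 in *Yap* mutant lungs.

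The paired ubiquitin ligases that R-spondins act on stood apart from each other. *Rnf43* was at 5.18 FPKM in control and 2.22 FPKM in the mutants, a log2 ratio of -1.18 and the lowest of the 43. *Znrf3* was at 5.01 and 4.50 FPKM, a log2 ratio of -0.15. Their levels were close in control lungs, with a ratio of *Rnf43* to *Znrf3* of 1.03, and it was 0.494 in *Yap* mutant lungs. The *Rnf43* locus, chr11:87662651-87735674, overlaps a second locus, *1110028F11Rik*, which was listed under 0.1 FPKM in both genotypes. Relative to the epithelial median, *Rnf43* was at -0.586, at the threshold itself, so its call under that scaling turns on the exact median of the 17 epithelial loci.

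In the nucleus, *Lef1* stood apart from the 3 TCF genes. *Lef1* (chr3:131109332-131224357) was at 21.2 FPKM in control and 40.2 FPKM in the mutants, a log2 ratio of 0.92. *Tcf7* was at 29.0 and 29.9 FPKM, *Tcf7l1*, which mostly encodes a repressor, at 25.3 and 22.7 FPKM, and *Tcf7l2* at 8.18 and 8.42 FPKM. Their log2 ratios lay between -0.15 and 0.05. *Lef1* thus ranked below *Tcf7* and *Tcf7l1* in control lungs and above all 3 in *Yap* mutant lungs, and its ratio to *Tcf7* was 0.732 and 1.34.

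*Lef1* and *Dkk2*, both higher in *Yap* mutant lungs, lie on chromosome 3 with 861 kb between them. Their promoters are shown for this reason, as above, and they hold neither GGAATG nor CTTTGAT on either strand. For *Lef1*, the first of its listed starts is shown.
*Lef1* promoter, chr3:131110047-131110346, plus strand: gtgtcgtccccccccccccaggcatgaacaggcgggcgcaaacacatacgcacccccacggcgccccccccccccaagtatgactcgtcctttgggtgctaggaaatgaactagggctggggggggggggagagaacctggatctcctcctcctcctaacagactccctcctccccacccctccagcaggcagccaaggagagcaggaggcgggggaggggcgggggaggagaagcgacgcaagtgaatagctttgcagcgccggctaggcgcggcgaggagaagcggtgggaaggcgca
*Dkk2* promoter, chr3:132085042-132085341, plus strand: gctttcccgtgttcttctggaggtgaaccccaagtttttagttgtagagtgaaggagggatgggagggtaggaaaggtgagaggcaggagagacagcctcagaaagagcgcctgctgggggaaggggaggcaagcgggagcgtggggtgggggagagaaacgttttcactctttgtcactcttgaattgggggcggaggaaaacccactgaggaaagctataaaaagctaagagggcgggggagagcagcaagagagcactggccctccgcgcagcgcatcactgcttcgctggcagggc

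Another 6 pairs of these genes lie within 1 Mb of each other, of which 4 are adjacent ligand genes. In each of those 4 pairs at least one gene had a mean under 0.1 FPKM. *Wnt9a* lies 16.2 kb from *Wnt3a*, at 0.0196 FPKM in control lungs. *Kremen1* and *Znrf3*, 12.7 kb apart on chromosome 11, had log2 ratios of -0.07 and -0.15. *Sfrp1* lies 784 kb from *Dkk4*, which was listed at 0.

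Several of these genes are known to be induced by β-catenin signalling, and their values did not point one way. *Axin2*, whose product scaffolds the complex that destroys β-catenin, was at 14.0 and 15.5 FPKM, a log2 ratio of 0.15. *Nkd1*, which binds the Dishevelled proteins, was at 14.4 and 15.8 FPKM, a log2 ratio of 0.13. *Notum* and *Znrf3* had log2 ratios of 0.01 and -0.15, while *Rnf43* had one of -1.18, *Lef1* 0.92 and *Dkk1* 2.81. These genes were gathered here for their known role and are not one of the lists counted. *Nkd2* was at 2.23 and 1.87 FPKM. *Axin1*, the scaffold that is not itself induced, was at 23.4 and 22.1 FPKM. None (0) of the 4 cytoplasmic genes was past 1.5-fold, beside 7.75% of all loci.

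A further list of 15 genes that WNT signalling can induce, many of which answer to other pathways too, had a median log2 ratio of 0.39 over 14 genes averaging 1 FPKM or more, and 4 of them were higher and 1 was lower by 1.5-fold, beside 4.44% and 3.30% of all loci. *Bmp4*, a growth factor gene of the distal tips, was just short of the threshold at a log2 ratio of 0.581. *Sp5*, which encodes a zinc finger factor and is a close β-catenin target, was at 6.76 and 14.4 FPKM, a log2 ratio of 1.08. *Cd44*, which encodes a hyaluronan receptor, was at 5.30 and 18.6 FPKM (1.79). *Id2*, a marker of the distal tip epithelium, was at 117.7 and 211 FPKM (0.84). *Bambi*, which encodes a decoy receptor for BMP, was at 20.2 and 32.3 FPKM (0.68). The lower gene was *Ccnd1*, which encodes cyclin D1, at 98.9 and 61.3 FPKM (-0.69).

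The cytoplasmic machinery was close to its control level. Of 25 genes listed, among them *Ctnnb1* (β-catenin), *Apc*, *Gsk3b* and the Dishevelled genes, 24 averaged 1 FPKM or more. Their log2 ratios lay between -0.22 and 0.35, so 0 were past 1.5-fold, beside 7.75% of all loci. *Ctnnb1* was at 430.4 and 389.7 FPKM, a log2 ratio of -0.14.

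Among 20 further extracellular modulators, 19 had a locus and 15 an average of 1 FPKM or more, and 1 was higher and 1 was lower by 1.5-fold, beside 4.44% and 3.30% of all loci. *Apcdd1* and *Lgr5* are in this list and also in that of the genes WNT signalling can induce. *Lgr6*, which encodes an R-spondin receptor, was at 2.48 and 0.720 FPKM, a log2 ratio of -1.66. Its relatives *Lgr4*, at 5.86 and 5.02 FPKM, and *Lgr5*, at 1.19 and 1.11 FPKM, were nearer to their control levels. *Trabd2b*, which encodes a protease that inactivates WNTs, was at 1.99 and 3.96 FPKM, a log2 ratio of 0.96.

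**Figure D4:**
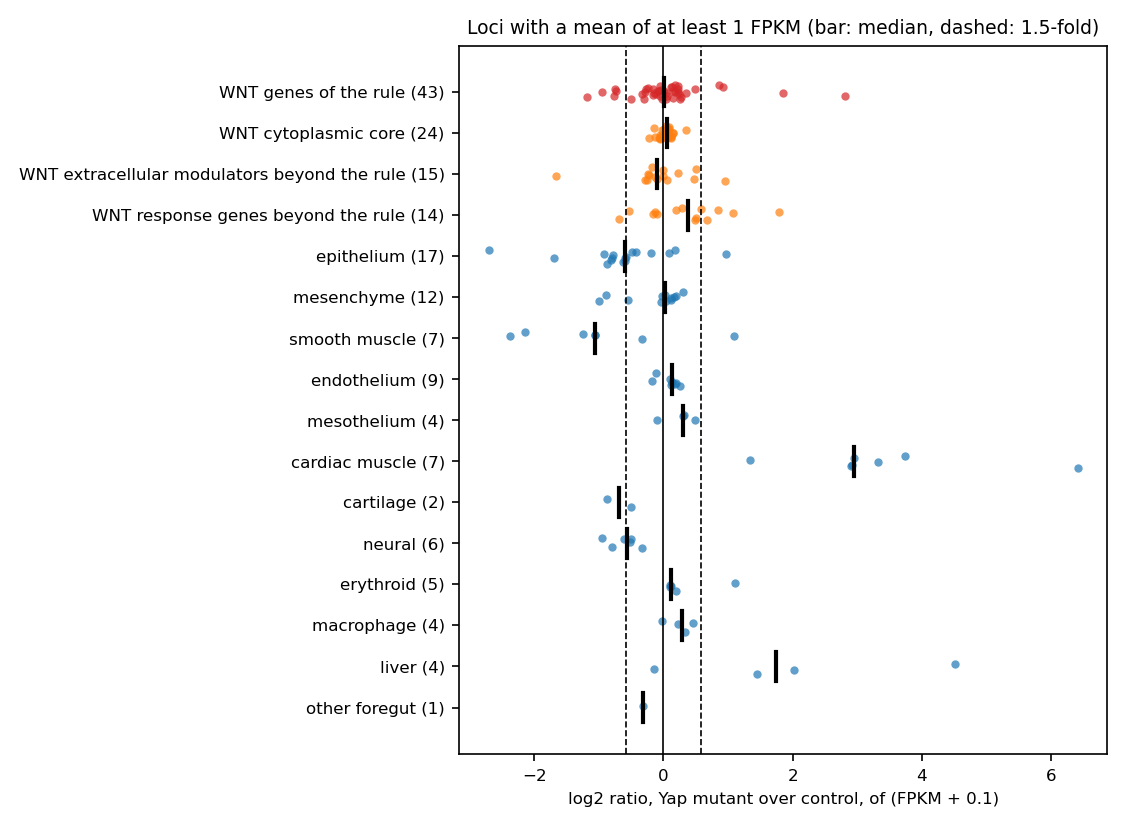
Log2 ratio of *Yap* mutant over control, after adding 0.1 FPKM, of each locus averaging 1 FPKM or more in the WNT genes of the rule (red), 3 further WNT lists (orange) and 12 marker lists (blue), with the number of loci in brackets and a bar at each median. The medians are 0.01 for the WNT genes, -0.60 for epithelium, -1.06 for smooth muscle and 2.96 for cardiac muscle. *Apcdd1* and *Lgr5* are plotted in both the response list and the extracellular list.

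Markers of several cell types differed between the same 2 values. The counts of marker loci below stand beside 4.44% of all loci higher and 3.30% lower by 1.5-fold. Of 17 epithelial loci, 10 were lower and 1, *Sftpc*, was higher by 1.5-fold, among the lower ones *Shh*, the locus that carries Cre, at 15.6 and 2.31 FPKM. Their sum was 487 FPKM in control and 362 FPKM in the mutants. *Wnt7b*, made by the epithelium, had a log2 ratio of 0.23 beside the epithelial median of -0.60. Of 12 mesenchymal loci, 2 were lower by 1.5-fold, *Foxf1* at 83.5 and 41.6 FPKM and the lower of a pair of *Tcf21* loci, and 0 were higher. The other *Tcf21* locus had a log2 ratio of -0.55. The mesenchymal median was 0.03, beside the log2 ratio of -0.77 for *Wnt2*. Of 7 smooth muscle loci, 5 were lower and 1 was higher, with a sum of 289 and 148 FPKM, and of 6 neural loci 3 were lower, with a sum of 18.4 and 11.3 FPKM.

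Beside the genes that were higher, all 7 cardiac muscle loci were higher by 1.5-fold. So were 3 of the 4 liver loci averaging 1 FPKM or more, *Afp*, *Ttr* and *Apoa1*, while *Alb* had a log2 ratio of -0.15. The medians of the endothelial, erythroid, macrophage and mesothelial lists lay between 0.12 and 0.31, with 1 locus of these lists past 1.5-fold. Of 5 cartilage loci, 1 was lower, *Matn1* was listed at 0 in both genotypes, and the sum was 44.9 and 30.0 FPKM. The 6 loci of other foregut organs summed to 2.62 and 3 FPKM, most of it *Barx1*, at 2.31 and 1.83 FPKM. *Pdx1* was at 0.0266 and 0.809 FPKM, a mean under 1 FPKM. Whether these cells or tissues carried part of the differences in *Wnt2*, *Wnt5a*, *Wnt11*, *Rnf43*, *Lef1*, *Dkk1*, *Dkk2* or *Wif1* was not tested.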

How the data were processed

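Whole-lung RNA from 3 control and 3 *Yap* mutant samples was sequenced from stranded paired-end libraries. Per the labels, the authors used TopHat, Cuffdiff and mm10. The sources used here give no versions or settings, and do not say whether reads were counted by strand. The authors deposited 2 tables, of all loci and of loci they list as changed, each with 1 FPKM value per genotype, summarised by the authors over replicates. The header names no unit, and FPKM was read from the Cuffdiff layout. The tables also hold the authors' own fold changes and p-values, which were not used. No counts or depths were at hand, so the precision of a value is unknown.

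Ratios, counts and medians were computed here with Python 3.11.15, numpy 2.4.6 and pandas 2.3.3, with 0.1 FPKM added, a mean of at least 1 FPKM and a 1.5-fold threshold, and the counting was tested on simulated data. Genes are named when past that threshold, when among the 3 highest of their role in control lungs, or when next to the threshold. Other genes given with values were chosen after their values were seen. The members and lists were chosen with earlier results of these data known. Of the 60 loci, 60 overlapped the RefSeq gene of their symbol on GRCm38, and starts are given with 1 added because the tables count from 0. Promoters are from RefSeq. Alternatives were another pseudocount, filter, scaling, threshold and table.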

Additional observations from a re-analysis of the deposited data

How the results depend on the processing

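The values of both deposited tables agreed within 1% for the genes that both hold. Taking the values of the table of changed loci left the same 9 of 43 genes past 1.5-fold, which follows from that agreement. Using no pseudocount or centring on the median of all loci also left these 9, against 7.96% and 7.76% of all loci. Adding 1 FPKM left 8 of 43, without *Fzd5*, against 5.42% of all loci. Requiring 1 FPKM in both genotypes, chosen after seeing the data, left 7 of 41, without *Dkk1* and *Fzd5*, against 5.94% of all loci. With no filter on low values, 14 of 60 genes passed (7 higher), against 10.5% of all 24402 loci. Raising the filter to an average of 5 FPKM left 5 of 32 (2 higher and 3 lower), against 4.18% of all loci. The genes lost there were *Dkk1*, *Fzd5*, *Rnf43* and *Wif1*. At 2-fold, 3 of 43 passed, *Dkk1* and *Dkk2* higher and 1, *Rnf43*, lower, against 3.44% of all loci. Relative to the median of the epithelial genes, 23 of 43 passed, a share close to the 52.9% of all loci that passed. Of the 23, 22 were higher and 1, *Rnf43* at -0.586, was lower at the threshold itself. The median log2 ratio of the 43 genes was 0.61 under this scaling. There *Wnt2*, *Wnt5a*, *Wnt11* and *Fzd5* were short of the threshold, at -0.17, -0.35, -0.15 and -0.14. The scaling is to epithelial markers alone, while *Wnt2* is made by the mesenchyme, whose marker list had an unscaled median of 0.03. It therefore does not set *Wnt2* against the cells that make it. No gene of the 9 changed direction under any of these settings, though only the scalings to a median could have changed one. No paired analysis was possible because the tables hold 1 value per genotype, and leaving out single replicates was not run for the same reason. Without counts, genes near or under 1 FPKM, such as *Dkk1* in control lungs and *Fzd5*, have the least certain ratios.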
